A study of Oryza sativa and Arabidopsis thaliana with 28 samples.

Results

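Some plant mRNAs carry a short upstream open reading frame (uORF) whose translation responds to a metabolite or to a stress and sets how often ribosomes reach the main protein-coding frame. The genes described here are 5 Arabidopsis genes of this kind, named by their gene codes: SAMDC1 (AT3G02470), SAMDC2 (AT5G15950), SAC51 (AT5G64340), NMT1 (AT3G18000) and HSFB1 (AT4G36990). SAMDC1, SAMDC2, SAC51 and NMT1 were among the 21174 genes of the ribosome-association table, so 4 of the 5 were measured, and HSFB1 was not analysed here. The rule that names the genes uses no measured value, but they were chosen with earlier results of these data known.

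The series profiled N4-acetylcytidine, a modified base of RNA, and ribosome-bound mRNA in Arabidopsis and rice, and 6 of its 28 samples, all from Col-0 seedlings of Arabidopsis, bear on these genes. In RNC-seq, 2 libraries of mRNA pelleted with ribosome-nascent chain complexes through a sucrose cushion (RNC) were set against 2 libraries of input mRNA. In ac4C-seq, 1 library of mRNA from 10-day-old seedlings treated with 100 mM NaCNBH3 for 20 min, which makes acetylated cytidines read as T, was set against 1 control library kept in the acid buffer without it. The labels give no age for the RNC and mRNA libraries, and they do not say whether the 2 libraries of a group came from separate plants.

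In SAMDC mRNAs, the uORF peptide stalls ribosomes when polyamines are plentiful, and the main frame encodes S-adenosylmethionine decarboxylase, which supplies the aminopropyl groups for spermidine and spermine. SAC51 encodes a basic helix-loop-helix protein of stem elongation, and its uORF responds to thermospermine. NMT1 encodes the phosphoethanolamine N-methyltransferase that makes phosphocholine, and its uORF responds to phosphocholine. HSFB1, also called TBF1, encodes a heat shock factor of growth and immunity whose uORFs respond to stress and immune signals. An RNC library counts an mRNA whether its ribosomes are on the uORF or on the main frame, so these data do not separate the frames.

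Of the green-tissue and broadly expressed markers, the light-harvesting gene CAB1 (AT1G29930) had 23374 and 22933 RPKM (reads scaled to length and sequencing depth) in the RNC libraries and 8441 and 8147 RPKM in the mRNA libraries, and TIP1;1 (AT2G36830), an aquaporin gene, had 196 and 198 RPKM in RNC and 267 and 247 RPKM in mRNA. The other 5 marker genes chosen for this check were not in the table. They include the green-tissue marker RBCS1A and the broadly expressed PIP1;1 beside pollen and seed genes, so absence was not read as low expression. Recovered reads over the genes of the table came to 18778391 and 17427652 in RNC, and the reads of the mRNA libraries to 18768358 and 18847446. Replicates differed by more than sampling noise, with a chi-square per gene of 2.91 for RNC and 3.34 for mRNA, where 1 is sampling noise. The RNC value rests on the recovered reads and would change with them, so it is not directly comparable with that of mRNA. Symbols were paired with codes from general knowledge and were not checked against an annotation, and positions are those of TAIR10, the build given in the submitters' processing notes.

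Every level in RNC depends on how its length was taken into account. The authors' mRNA values equal an integer number of reads divided by the distance between gene start and end, whereas their RNC values were divided by other lengths whose source is not given and which were unrelated to the span (Spearman's rho 0.021 across genes, which are not independent replicates). RNC values are therefore given as deposited, averaged over the transcripts of a gene, and again as recovered reads over the gene's own span, the length used for mRNA. Reads were recovered from the ratios of the values, so a recovered number may lie below the true one by an integer factor. The library totals in the RPKM were inferred from the values as well. They were 47396552 and 43872238 reads in RNC and 39128550 and 39339118 reads in mRNA.

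SAMDC1 lies on the plus strand of chromosome 3 from 508886 to 511561. It had 1458 and 1477 RPKM in the RNC libraries as deposited, against 580 and 567 RPKM in the mRNA libraries. The RNC libraries were both above the mRNA libraries, and SAMDC1 stood at percentile 99.8 of the genes of the table by mRNA level. Over its own span SAMDC1 had 453 and 459 RPKM in RNC, so that both RNC libraries then lay below both mRNA libraries. The reads were 57472 and 53904 in RNC and 60748 and 59674 in mRNA.

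SAMDC2, its paralog on the plus strand of chromosome 5 (5205869 to 5208036), had 59.0 and 57.6 RPKM in RNC as deposited and 24.75 and 22.04 RPKM in mRNA. Again the RNC libraries were the higher ones. Over its own span SAMDC2 had 18.5 and 18.1 RPKM in RNC, below both mRNA libraries, from 1900 and 1717 reads in RNC and 2099 and 1879 reads in mRNA. Reads that could come from either SAMDC gene may have been split between them in the authors' counting, which the sources used here do not describe.

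SAC51, on the minus strand of chromosome 5 (25730335 to 25733313), had 113 and 126 RPKM in RNC as deposited, against 10.3 and 10.5 RPKM in mRNA. This was the widest deposited gap of the 4 genes. Over its own span SAC51 had 8.67 and 9.62 RPKM in RNC, below both mRNA libraries, from 1224 and 1257 reads in RNC and 1199 and 1232 reads in mRNA. The read numbers overlapped, so the lower RPKM rests on the larger library totals of RNC. The smallest whole-number solution for its RNC reads was 408 and 419, which was raised 3-fold, a step chosen after seeing the data. The reason was that 94.0% of the lengths recovered in a subset of genes with at least 4 transcripts each were multiples of 3. SAC51, with 1 transcript, was not in that subset.

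NMT1, on the plus strand of chromosome 3 (6154363 to 6157552), had 17.4 and 17.3 RPKM in RNC as deposited and 2.97 and 3.20 RPKM in mRNA. Over its own span the RNC libraries had 2.92 and 2.89 RPKM, just under the mRNA libraries, from 441 and 405 reads in RNC and 370 and 401 reads in mRNA. The RNC reads were above the mRNA reads, so the lower RPKM rests on the larger library totals of RNC. Here too the smallest solution, 147 and 135 RNC reads, was raised 3-fold, and NMT1 too has 1 transcript. NMT1 was the lowest of the 4 genes in both kinds of library and stood at percentile 56.2 by mRNA level, against 83.6 for SAC51 and 92.9 for SAMDC2.

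**Figure D1:**
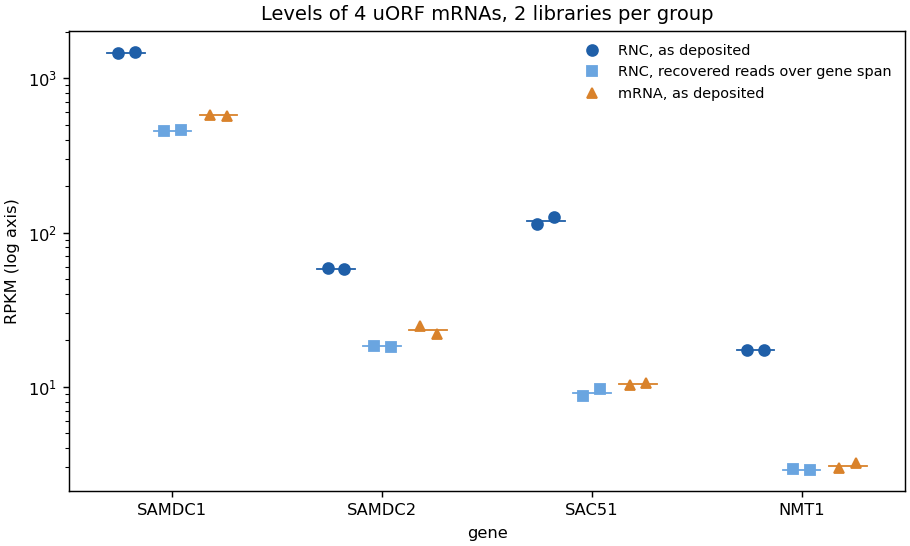
Levels of SAMDC1, SAMDC2, SAC51 and NMT1 in each library, in RPKM on a log axis: RNC as deposited, RNC as recovered reads over the gene's own span, and mRNA. The deposited RNC points lie above the mRNA points for every gene, and the own-span RNC points, scaled to inferred library totals, lie below them.

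By mRNA level the order was SAMDC1, SAMDC2, SAC51 and NMT1, with neighbours 24.5-fold, 2.25-fold and 3.38-fold apart. By RNC level as deposited SAC51 moved to the second place, 2.05-fold above SAMDC2. Over the own span the RNC order was that of mRNA, with neighbours 24.96-fold, 2.00-fold and 3.15-fold apart. SAC51 and NMT1 enter this order with RNC reads raised 3-fold, so the 2.00-fold step between SAMDC2 and SAC51 rests on that raise. In each of these orders the libraries of neighbouring genes did not overlap.

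RNC was then compared with mRNA, which asks how far the ribosome-bound level of an mRNA departs from its input level. As deposited, all 4 uORF genes were higher in RNC, on log2(RPKM + 1) with limma over 16487 genes (adjusted p under 0.05). Of all tested genes, 76.1% were called higher and 13.1% lower in RNC, so a call of higher was also the usual result. SAC51 averaged 119 ± 8.77 RPKM in RNC and 10.4 ± 0.160 RPKM in mRNA (SD, n = 2 each), a difference of 3.40 (SE 0.06, limma adjusted p = 6.12e-14). NMT1 averaged 17.4 ± 0.0968 RPKM in RNC and 3.08 ± 0.164 RPKM in mRNA, a difference of 2.17 (SE 0.09, limma adjusted p = 4.35e-11). SAMDC1 averaged 1467 ± 13.7 RPKM in RNC and 574 ± 9.41 RPKM in mRNA, a difference of 1.35 (SE 0.04, limma adjusted p = 7.92e-13). SAMDC2 averaged 58.3 ± 0.990 RPKM in RNC and 23.4 ± 1.92 RPKM in mRNA, a difference of 1.28 (SE 0.07, limma adjusted p = 5.51e-10).

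These differences stand against a median of 0.98 over all tested genes. SAC51 lay at percentile 97.9 and NMT1 at percentile 85.6 of the deposited differences, whereas SAMDC1 and SAMDC2 lay at 63.9 and 61.4. With each library centred on its median, the differences were 2.35 for SAC51, 1.12 for NMT1, 0.31 for SAMDC1 and 0.24 for SAMDC2, and all 4 were called higher (limma), as were 38.7% of all tested genes, while 43.8% were called lower.

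With recovered reads over the own span, the sign turned. SAMDC1 was lower in RNC by a difference of -0.33 (SE 0.04, limma adjusted p = 0.000178) and SAMDC2 by -0.34 (SE 0.07, limma adjusted p = 0.00442). SAC51 (-0.17, limma adjusted p = 0.0968) and NMT1 (-0.063, limma adjusted p = 0.599) were not called. Among the 16425 genes tested this way, 28.5% were called lower and 11.8% higher, and the median was -0.079. Centred as well, SAMDC1 alone of the 4 was called lower (-0.17, SE 0.04, limma adjusted p = 0.0153), against 17.3% of all tested genes called lower and 27.3% called higher. That call was lost without RNC replicate 1 or RNC replicate 2 (-0.17 in each), and with the unraised lengths (-0.089, limma adjusted p = 0.112). The reads of SAMDC1 itself were not raised, so the last value moved only through the library medians used for centring. SAMDC2 had -0.18 (limma adjusted p = 0.0820) and, of the fits that left out 1 library, was called lower in the one without mRNA replicate 2 (-0.26, limma adjusted p = 0.0256). SAC51 had -0.0080 and NMT1 0.099, with limma adjusted p of 0.938 and 0.360. With the smaller solutions for their reads, SAC51 had -1.25 and NMT1 -0.81, both called lower (limma adjusted p = 6.98e-06 and 0.000109), so whether they are called rests on the recovered lengths. The p-values cover the spread between 2 libraries a group, not errors in the recovered reads.

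**Figure D2:**
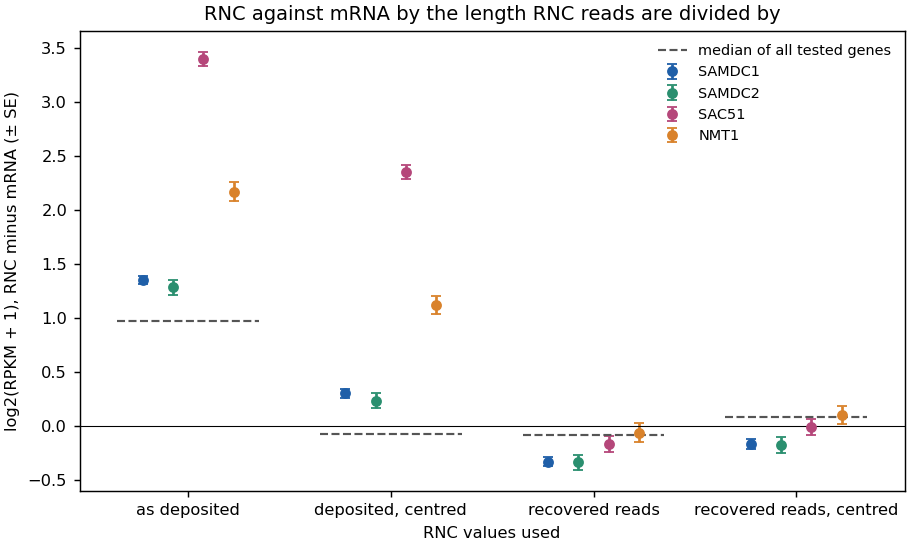
Differences between RNC and mRNA, on the log2(RPKM + 1) scale with their standard errors, for SAMDC1, SAMDC2, SAC51 and NMT1 under 4 ways of computing them. The deposited differences reach 3.40 for SAC51, and those from recovered reads with centring lie between -0.18 and 0.099.

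The deposited values differed within a gene as well. SAMDC1 has 3 transcripts in the table, which share mRNA values and RNC reads. In the authors' deposited table, transcript AT3G02470.4 had RNC values of 2336 and 2367 RPKM, AT3G02470.1 had 1081 and 1095 RPKM and AT3G02470.3 had 956 and 968 RPKM. The lengths recovered for these transcripts were 519, 1122 and 1269 bases, the shortest length going with the highest value. The translation efficiency in the authors' deposited table, a natural log of mean RNC over mean mRNA, was 1.41, 0.640 and 0.517 for these transcripts. SAMDC2 had 0.843 and 0.979 for its transcripts, with lengths of 729 and 636 bases, in the authors' deposited table and from its values. SAC51 had 2.44 there with a length of 228 bases, and NMT1 had 1.73 with 534 bases. SAC51 thus combined the highest deposited efficiency of the 4 genes with the shortest length.

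The genes with levels most like each uORF gene, by Euclidean distance over log2(RPKM + 1) in the 4 libraries as deposited, were AT2G21330 (distance 0.454) and AT1G60950 (0.527) for SAMDC1. They were AT3G49940 (0.0824) and AT2G46280 (0.135) for SAMDC2. SAC51 was nearest to AT3G02520 (0.101) and AT5G05740 (0.153), and NMT1 to AT3G24010 (0.0450) and AT5G10010 (0.0659). From centred reads, these neighbours had differences of -1.15 and 0.89 for SAMDC1, -0.23 and 0.11 for SAMDC2, 0.15 and 0.16 for SAC51, and 0.58 and 0.37 for NMT1.

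Of the other genes of the same families, 7 were in the table. As deposited, 5 of the 7 were called higher in RNC, near the 76.1% of all tested genes, with a median difference of 1.25 against 0.98 over all tested genes. SAMDC3 (AT3G25570), a further decarboxylase gene, had 4.77 and 5.68 RPKM in RNC and 4.85 and 4.10 RPKM in mRNA, a difference of 0.19 that was not called. Of the SAC51-like genes, SACL1 (AT5G09460) had 1.25 and SACL2 (AT5G50010) had 1.95, both called higher, and SACL3 (AT1G29950) had -0.0067 and was not called. The methyltransferase genes NMT2 (AT1G48600) and NMT3 (AT1G73600) had 1.12 and 1.70, and the heat shock factor gene HSFB2A (AT5G62020) had 1.88, all called higher. From centred reads, SACL2 (0.35, limma adjusted p = 0.0150) and NMT2 (0.28, limma adjusted p = 0.00916) were higher and SACL3 was lower (-0.38, limma adjusted p = 0.00386). The other 4 were not called, among them NMT3, whose RNC reads were raised 3-fold like those of SAC51. Over all tested genes, 27.3% were called higher and 17.3% lower from centred reads, shares near those of these genes.

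Other genes known for uORF control had opposite signs between deposited values and reads. As deposited, 5 of 6 were called higher in RNC (median 1.64), against 76.1% of all tested genes, and from reads all 6 were called lower (median -0.57), against 28.5%. From centred reads 5 of 6 were lower, against 17.3% of all tested genes, with a median of -0.41 against 0.083. Recovered reads that are too low by an integer factor would lower the difference of their gene. The calls of lower in this list therefore rest on the recovered lengths. VTC2 (AT4G26850), an enzyme gene of ascorbate synthesis whose uORF responds to ascorbate, had 484 and 509 RPKM in RNC as deposited and 131 and 133 RPKM in mRNA, but 6613 and 6429 reads in RNC and 14093 and 14397 in mRNA. Its differences were 1.90 as deposited and -1.17 from centred reads (limma adjusted p = 2.05e-06), and its RNC reads too may be too low by an integer factor. The magnesium and zinc exchanger gene MHX (AT2G47600) had 2.30 and -0.78, the second from RNC reads raised 3-fold from 75 and 80, and the borate transporter gene BOR1 (AT2G47160) had 3.09 and -0.30. The boric acid channel gene NIP5;1 (AT4G10380) had 0.47 and -0.52, and the protein kinase gene CIPK6 (AT4G30960) had 0.046, not called, and -0.29. PHO1 (AT3G23430), a phosphate exporter gene, had 1.38 and -0.17 and was not called from centred reads. VTC2, MHX, NIP5;1, CIPK6 and PHO1 have 1 transcript each, so their RNC reads were recovered from 1 value per library.

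In the polyamine pathway, 13 of 16 tested genes were higher and 3 lower as deposited (median 1.504), while from centred reads 4 were higher and 3 lower of 15. Over all tested genes the shares were 76.1% and 13.1% as deposited and 27.3% and 17.3% from centred reads, near those of the list. The spermine synthase gene SPMS (AT5G53120) had the largest deposited difference of the list, 4.02, with 84.8 and 88.9 RPKM in RNC and 4.67 and 4.17 RPKM in mRNA, and it stayed higher from centred reads (0.45). PAO2 (AT2G43020) and PAO3 (AT3G59050), polyamine oxidase genes, had 3.35 and 2.84, and ADC2 (AT4G34710), an arginine decarboxylase gene, had 2.56. These 3 were not called from centred reads.

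In the phosphatidylcholine pathway all 7 tested genes were higher as deposited (median 1.67), and 3 were higher and 1 lower from centred reads, beside 76.1% higher as deposited and 27.3% higher and 17.3% lower from centred reads over all tested genes. As deposited, the choline or ethanolamine kinase gene CEK1 (AT1G71697) had 2.74 and the phosphocholine-activating enzyme gene CCT1 (AT2G32260) 2.19. The aminoalcohol phosphotransferase genes AAPT1 (AT1G13560) and AAPT2 (AT3G25585) had 1.94 and 1.67. CCT1 was among the 3 called higher from centred reads (0.33, limma adjusted p = 0.0146), with RNC reads raised 3-fold from 345 and 342. Of the class A and C heat shock factor genes, 6 of 8 tested were higher and 1 lower as deposited (median 0.69), and 2 were higher and 1 lower from centred reads, shares near those of all tested genes. HSFA1B (AT5G16820) had 1.32, HSFA4C (AT5G45710) 1.31 and HSFA7A (AT3G51910) 1.22, while HSFA4A (AT4G18880) had -0.95 as deposited and -1.16 from centred reads.

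**Figure D3:**
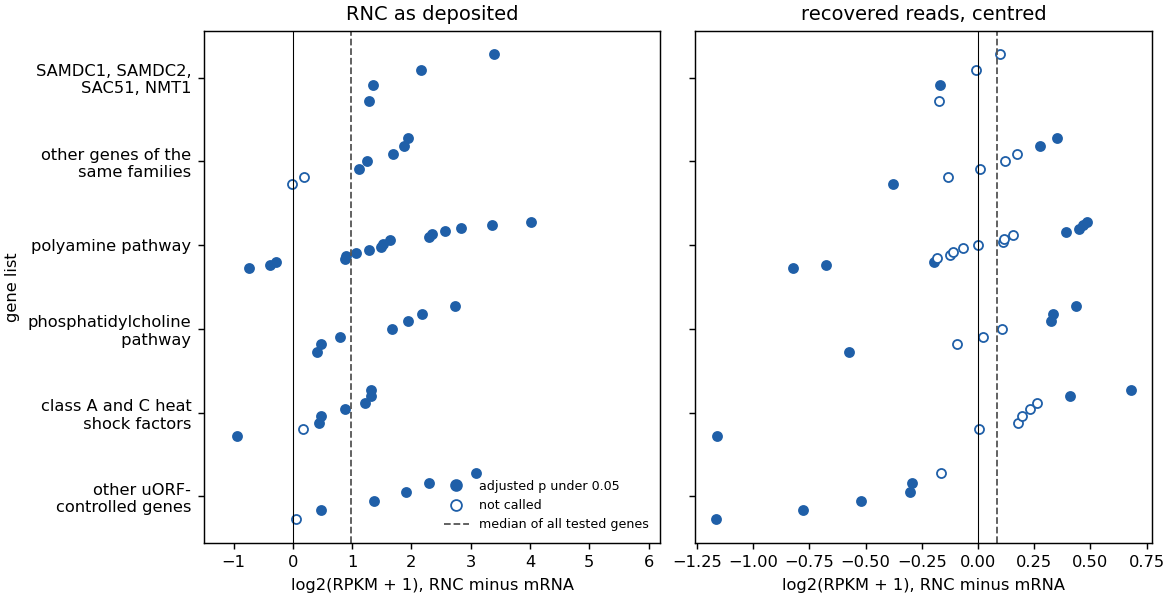
Differences between RNC and mRNA on the log2(RPKM + 1) scale for each tested gene of the lists, as deposited on the left and from recovered reads with centring on the right. Each point is a gene, filled where limma called it, and the dashed line is the median of all tested genes, 0.98 on the left and 0.083 on the right.

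The ac4C-seq libraries ask where cytosines read as T more often after NaCNBH3. Of 66873 tested sites, 94.3% were called higher in the NaCNBH3 library (Fisher's exact test, two-sided, with an adjusted p below 0.05), and every listed site had at least 5 T reads in that library. With 1 library on each side, the test sets these libraries, and not the conditions, against each other. The list carries no strand and held 51591 nuclear sites in plus-strand genes alone against 1999 in minus-strand genes alone, so SAC51, on the minus strand, was not assessed. A called site was present in 34.0% of all plus-strand genes listed in the table.

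SAMDC1 held 374 listed cytosines, and all 374 were called higher in the NaCNBH3 library. Since T reads in that library decided which sites were listed, the calls are a description and not a test of SAMDC1, and 98.5% of other nuclear plus-strand sites in its depth range were called as well. The median rate of T reads over these sites was 0.893% in the NaCNBH3 library, with a range of 0.209% to 2.41%, and 0.0263% in the control library, with a maximum of 0.157%. Pooled over the sites, the rates were 0.909% and 0.0310%. At 70 of the sites the control library had no T read. The depth was 637 to 3890 reads in the NaCNBH3 library (median 2120) and 2566 to 14085 reads in the control library (median 9177). At the median depth, 5 T reads correspond to a rate of 0.236%, so cytosines with lower rates could not be listed.

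**Figure D4:**
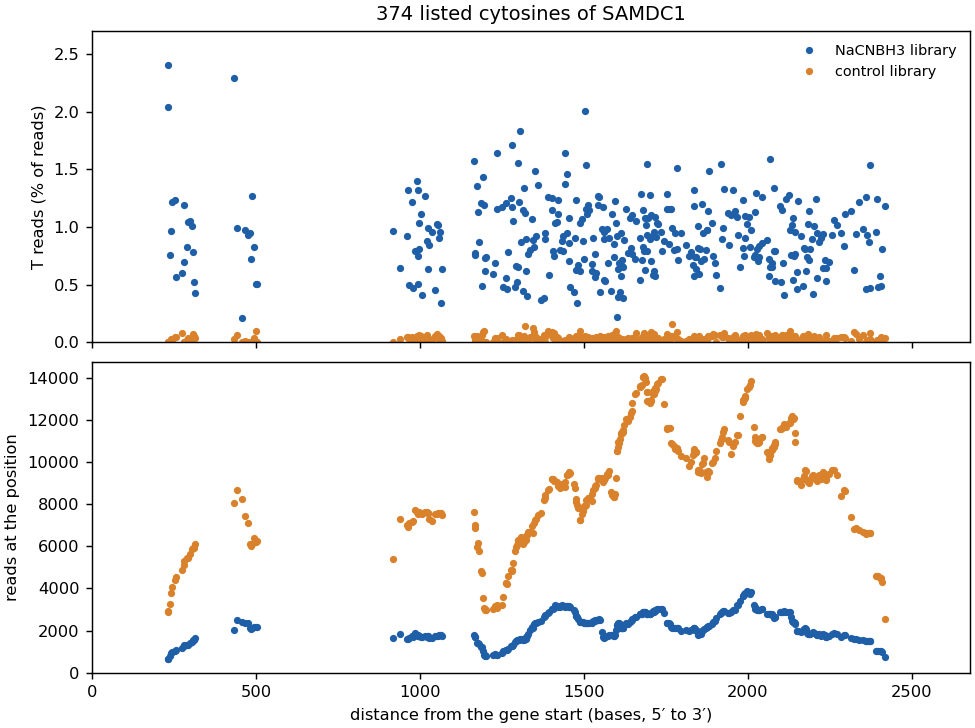
Share of T reads, in percent, at each listed cytosine of SAMDC1 by distance from the gene start, in the NaCNBH3 and control libraries. The NaCNBH3 points reach 2.41%, the control points stay at or below 0.157%, and stretches of the gene hold no listed site.

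Listed sites ran through most of SAMDC1 rather than standing alone. Counted from the gene start as base 1, the longest stretch without a listed site between others ran from base 505 to base 916, and others of 117 and 97 bases ran from base 315 and from base 1068. No site was listed in the first 229 or the last 259 bases. With the gene cut into 10 equal stretches, the median rate in the NaCNBH3 library lay between 0.826% and 1.22% wherever sites were listed, and the stretch with the highest median held 7 sites at a median depth of 934 reads. Introns, the uORF and the main frame were not located, since no annotation of the gene's exons was used here.

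The highest rates in SAMDC1, named after their values were seen, were at the sites that reached 2%. Position 509116 of chromosome 3 had 16 T of 664 reads in the NaCNBH3 library, or 2.41% (95% Clopper-Pearson bounds 1.38 and 3.88). The control library had 0 of 2934 there, with an upper limit of 0.102% at 3 reads and a Clopper-Pearson upper bound of 0.126%. Its neighbour 509115 had 13 of 637 reads, or 2.04% (1.09 to 3.46), against 0 of 2867. Position 509317 had 47 of 2051 reads, or 2.29% (1.69 to 3.04), against 2 of 8038, and position 510388 had 47 of 2343 reads, or 2.01% (1.48 to 2.66), against 4 of 7939. The intervals of these sites overlap one another. The bounds reflect counting error alone, because reads that carry no molecular identifier may be copies of one molecule.

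Sites of other nuclear plus-strand genes were set beside those of SAMDC1. At 23556 such sites with a depth within the range of SAMDC1 in the NaCNBH3 library, the median rates were 0.908% in that library and 0.0171% in the control library. Their median depth was lower than that of SAMDC1, at 1134 reads in the NaCNBH3 library and 4293 in the control library, and the rates that could be listed depend on depth. Of those sites 2.48% reached 2% and 35 reached 5%, against 1.07% and 0 of the SAMDC1 sites. These are descriptions of the same 2 libraries, and sites of a gene share its reads. SAMDC1 was among the genes with most sites: of 10564 nuclear plus-strand genes, 3 held more called sites, where the median was 3 among the 3574 genes with any. In the table it was also among the most abundant mRNAs. The share of genes with a called site went up with mRNA level, to 90.2% of the 51 genes at 200 to 1000 RPKM, the band of SAMDC1. In that band the median was 125 called sites and the maximum was 374, that of SAMDC1. Genes at 1000 RPKM or more held at most 271, and the 3 genes with more sites than SAMDC1 lay at 50 to 200 RPKM. Of the 374 SAMDC1 sites, 118 were at least 1 point above the control library, against 36217 of all 66873 tested sites. The tested sites were not matched for depth here, with a median of 788 reads in the NaCNBH3 library against 2120 in SAMDC1. Shallower sites could be listed only at higher rates, so the lower share in SAMDC1 is not comparable.

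**Figure D5:**
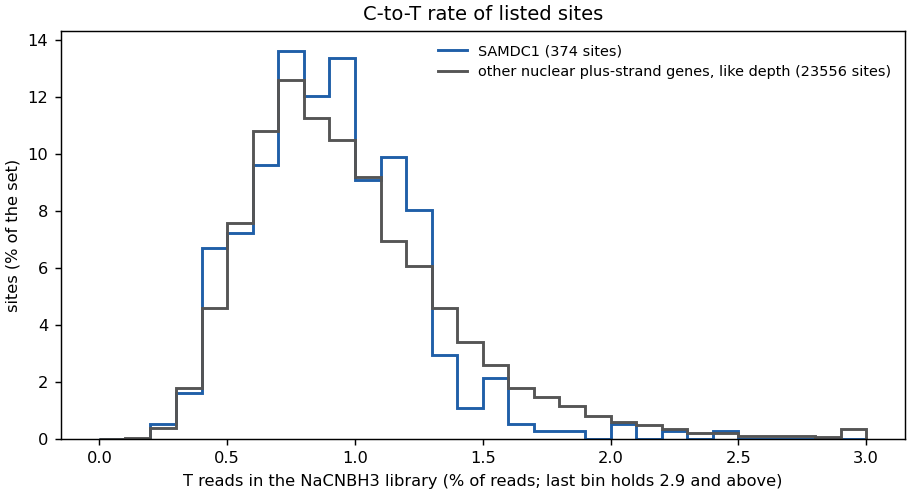
Distribution of the share of T reads in the NaCNBH3 library, in percent, over the 374 SAMDC1 sites and over 23556 sites of other nuclear plus-strand genes with a depth in the same range. Both distributions are highest in the bin from 0.7% to 0.8%, with values of 2.9% or more gathered in the last bin.

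NMT1 held 1 listed site, position 6155145 of chromosome 3, base 783 of the gene. It had 7 T of 145 reads in the NaCNBH3 library, or 4.83% (1.96 to 9.69), against 0 of 108 in the control library. The upper limit there was 2.78% at 3 reads, which is tighter than a Clopper-Pearson bound. Fisher's exact test gave p = 0.0214 and an adjusted p of 0.0229, for a site that was listed because of its T reads in the NaCNBH3 library. The site was not called with the Benjamini-Yekutieli adjustment (adjusted p = 0.268, Fisher's exact test) or in the authors' deposited table (adjusted p = 0.670). At that depth a rate under 3.45% could not be listed, so the rate of NMT1 is not comparable with the lower rates of SAMDC1.

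SAMDC2 held no listed site. Among the 548 nuclear plus-strand genes at 20 to 50 RPKM, the band of SAMDC2 by mRNA level, 83.4% had called sites, and the median number was 9. Its depth in the ac4C-seq libraries was not known, since the list gives reads only at listed sites. SAMDC1 and SAMDC2 thus differed in listed sites, 374 against 0, as they did in mRNA level, 574 against 23.4 RPKM.

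Among the related plus-strand genes, NMT2 held 6 called sites (median 3.36% in the NaCNBH3 library) and NMT3 held 3 (3.55%), while SACL2, SACL3 and HSFB2A held none. The S-adenosylmethionine synthetase gene SAM1 (AT1G02500), whose product feeds the SAMDC reaction, held 240 listed sites, of which 236 were called, with a median of 0.962% in the NaCNBH3 library. CIPK6 held 58 and the spermidine synthase gene SPDS1 (AT1G23820) 16. The median depth at listed sites in the NaCNBH3 library was 149 reads for NMT2, 141 for NMT3 and 1044 for SAM1. At the depths of NMT2 and NMT3, the 5 T reads needed for listing already correspond to about their median rates. Their rates are therefore not comparable with those of SAM1 or SAMDC1.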

How the data were processed

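The authors' deposited RNC-seq table gives RPKM per transcript for 2 RNC and 2 mRNA libraries, with translation efficiency as a natural log ratio (100% of transcripts, tolerance 1e-06). The authors' deposited site table gives counts of T reads and of reads at cytosines, and p-values. Its column headed C was taken as all reads, since a 2-proportion test that treats it so gives the deposited p-value for 100% of sites (within a relative 0.001). Per the submitters' processing notes, STAR 2.5.3a and SAMtools were used with TAIR10; the step each served is not given in the sources used here. The other 22 samples were not used here.

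RNC values were averaged over a gene's transcripts. The mRNA values are whole reads over the gene span (100% within 0.01 reads). RNC reads were recovered for 21112 of 21174 genes as the smallest whole-number solution, with lengths raised to multiples of 3, which moved 1836 genes. The steps were tested on simulated data. The test on log2(RPKM + 1) used limma 3.58.1 (eBayes with trend, in R 4.3.3) on the genes whose mean RPKM reached 1, with the Benjamini-Hochberg adjustment. Fisher's exact test (two-sided, Benjamini-Hochberg adjusted) was run at sites where each library had 10 or more reads. Intervals are 95% Clopper-Pearson, and for 0 T reads the upper limit is set at 3 reads. Depth limits precision as given beside each site. Python 3.11.15, numpy 2.4.6, pandas 2.3.3, scipy 1.17.1 and matplotlib 3.10.9 were used.

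The genes and lists were chosen with earlier results of these data known. Named were all uORF genes, same-family and other uORF-controlled genes, up to 4 genes of each other list with the largest called deposited change, the 2 nearest genes, and the sites of plus-strand uORF genes. Further sites, SAM1, CIPK6 and SPDS1 were named after their values were seen. Some symbols of the lists have no gene in the table and were not analysed here. Alternatives covered the pseudocount, filter, scaling, recovered reads, left-out libraries, site depth and adjustment.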

Additional observations from a re-analysis of the deposited data

How the results depend on the processing

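The differences of SAMDC1, SAMDC2, SAC51 and NMT1 as deposited kept their direction and call under other pseudocounts, low-value filters, transcripts and centring, and without any 1 library (1.34 to 1.37, 1.203 to 1.36, 3.32 to 3.47 and 2.13 to 2.21). From recovered reads over the own span they were -0.33, -0.34, -0.17 and -0.063, and centred as well -0.17, -0.18, -0.0080 and 0.099; here the lengths divided by are what changed. Genes called higher in RNC numbered 12547 (12137 to 12494 without any 1 library) and 8074, where fewer genes were tested, at a mean of at least 5 RPKM, 6379 centred, 1940 from reads and 4485 from centred reads; genes called lower numbered 2156 (1916 to 2149), 1128, 7216, 4684 and 2848. From centred reads, leaving out 1 library gave -0.19 to -0.14 for SAMDC1, -0.26 to -0.088 for SAMDC2, -0.066 to 0.051 for SAC51 (0.051 without RNC replicate 1) and 0.066 to 0.13 for NMT1; with unraised lengths SAC51 had -1.25 and NMT1 -0.81, and not centred NMT1 had -0.063. A replicate block, run for the deposited values and for centred reads, changed no call of the 4 genes in either. It gave 12511 genes higher and 2139 lower as deposited, and a limma adjusted p of 0.0178 for SAMDC1 from centred reads. Deviations of equally numbered RNC and mRNA libraries were unrelated (Pearson's r = -0.022 across genes). That value cannot tell whether these libraries came from the same plants. Asking for at least 1 point above the control left 36217 of 66873 tested sites higher, and 118 of the 374 in SAMDC1. The NMT1 site rests on 7 T reads and was called at 0 sites under the Benjamini-Yekutieli adjustment and with the deposited adjusted p. Depth limits low-rate sites more at the NMT1 site than in SAMDC1.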
